A study of Mus musculus with 6 samples.

Results

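The miR-15/16 family is a group of miRNAs that share the seed AGCAGCA, together with miR-503, which is encoded beside miR-322 and differs from that seed in its last base. Members were taken by name, as every mouse miRNA on the array whose name starts with mmu-miR-15a, mmu-miR-15b, mmu-miR-16, mmu-miR-195, mmu-miR-497, mmu-miR-322 or mmu-miR-503. This gave 12 of the 566 mouse miRNAs measured, with 34 probes. Of the 12, 6 carry this seed, and the 3p arms that the names take in do not. LLC1 cells, a Lewis lung carcinoma line that comes from a C57BL mouse, were grown for 48 h either in 2D culture on plastic or in lr-ECM 3D culture, embedded in a laminin rich extracellular matrix at 0.5 mg/ml above an agarose layer. Each condition had 3 biological replicates of this single cell line and 1 array per replicate, hybridised with 100 ng of Cy3-labelled RNA. Neither group carried a genetic change or a drug, and both were grown in the same medium with serum and antibiotics.

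A mature miRNA guides the silencing complex to messenger RNAs that pair with its seed, bases 2 to 8 from the 5′ end, so miRNAs with one seed share many predicted targets. Members of this family are known for repressing cyclin D1, cyclin E1, CDK6 and BCL2, and for slowing entry into S phase when their level is raised. The miR-15a and miR-16-1 genes lie in the host transcript Dleu2, a locus lost in chronic lymphocytic leukaemia in humans, and the remaining copy pair, miR-15b and miR-16-2, lies within the condensin subunit gene Smc4. The miR-195a and miR-497a genes form another pair, and miR-322 and miR-503 a pair on the X chromosome that is known for its role in muscle differentiation and cell cycle exit.

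The mature sequences of the 5p members are shown because the seed defines the family and because the bases after it are what separates the probe targets from each other. Capitals mark bases 2 to 8. All 12 members matched the RefSeq table of mouse miRNAs by name (GRCm38.p6).
mmu-miR-15a-5p: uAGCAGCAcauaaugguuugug
mmu-miR-15b-5p: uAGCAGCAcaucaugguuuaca
mmu-miR-16-5p: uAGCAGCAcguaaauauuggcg
mmu-miR-195a-5p: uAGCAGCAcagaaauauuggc
mmu-miR-322-5p: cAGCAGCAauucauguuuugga
mmu-miR-497a-5p: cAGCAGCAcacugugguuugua
mmu-miR-503-5p: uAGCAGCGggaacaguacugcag

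Of the 1679 mature mouse miRNAs in that table, 10 (0.596%) hold AGCAGCA at bases 2 to 8, read on the RNA strand as listed, and 16 (0.953%) hold it at any position. The array had probes for 6 of these 10. The other 4 were mmu-miR-195b, mmu-miR-6342, mmu-miR-6353 and mmu-miR-6419. Over the whole sequence the closest pair of 5p members was mmu-miR-16-5p and mmu-miR-195a-5p, with the same base at 19 of 21 positions counted from the 5′ end. The pair mmu-miR-15a-5p and mmu-miR-15b-5p had 18 of 22 positions in common. At the other end, mmu-miR-503-5p shared 10 to 12 positions with each of the other 5p members. The seed of mmu-miR-503-5p keeps the first 6 bases of AGCAGCA and ends in G. Probe sequences were not used here, so how far a probe binds a close relative was not tested.

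The loci are spread over 4 chromosomes. Mature mmu-miR-15a-5p lies at chr14:61632075-61632096 on the minus strand, and mature mmu-miR-16-5p has a copy beside it at chr14:61631936-61631957. On chromosome 3, mmu-miR-15b-5p lies at chr3:69009775-69009796 and the second copy of mmu-miR-16-5p at chr3:69009918-69009939, both on the plus strand, with 66 bases between the hairpins. Since both copies give the same mature sequence, the signal of mmu-miR-16-5p cannot be assigned to either locus. The hairpins of Mir497 and Mir195a are 241 bases apart on chromosome 11, where mmu-miR-195a-5p lies at chr11:70235062-70235082 on the plus strand. On X, mmu-miR-322-5p lies at chrX:53054306-53054327 on the minus strand, 200 bases from the hairpin of Mir503 when counted between hairpins, and the noncoding gene C430049B03Rik spans both.

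The arrays differed in brightness, which bears on every value below. Averaged over miRNA probes, the unscaled signal lay between 5.03 and 40.4 linear units for 2D and between 37.8 and 49.9 for lr-ECM 3D, and 2D replicate 2 was the dimmest. It had 48 mouse miRNAs well above background, a flag of the scanner software carried by at least 50% of a probe's spots. There were 75 and 101 such miRNAs on the remaining 2D arrays, and 120 to 151 per lr-ECM 3D array. Each array was scaled so that its mean signal equalled that of the 2D arrays, with a factor of 4.43 for 2D replicate 2 and 0.447 to 1.04 for the others, and scaled signals were converted to log2. The 2D arrays shared 1 slide and 1 scan day, and the lr-ECM 3D arrays shared a different slide and a different day. Culture cannot be told apart from slide and scan day in the comparisons that follow. Most markers of other cell types fixed as lists for this comparison were not well above background, and a blood cell marker was an exception. None of the 10 epithelial miRNAs, which include the miR-200 family, was well above background on any array, although LLC1 is a carcinoma line, nor were 9 of 10 from endothelium, liver, muscle and neurons or 6 of 8 from blood cells. The exceptions were mmu-miR-206-3p on 1 lr-ECM 3D array and both arms of the leukocyte miRNA miR-142a, whose log2 changes were -0.45 (mmu-miR-142a-3p) and -0.10 (mmu-miR-142a-5p), with adjusted p of 0.333 and 0.658 in limma. The log2 of the summed scaled signals of the blood cell list lay between 8.14 and 9.09 on the 2D arrays and between 8.03 and 8.12 on the lr-ECM 3D arrays. Within it mmu-miR-142a-3p was well above background on all 6 arrays, with mean log2 signals of 8.36 in 2D and 7.90 in lr-ECM 3D. Those of mmu-miR-142a-5p were 4.61 and 4.52, and those of the undetected mmu-miR-223-3p were 2.02 and 1.35. The listed mmu-miR-451a, mmu-miR-144-3p, mmu-miR-150-3p, mmu-miR-150-5p and mmu-miR-486a-5p were at the floor of 0 on every array. The part of RNA from other cells in the results below was not tested.

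The family divided into detected and undetected members by arm and locus. The 5p arms of miR-15a, miR-15b, miR-16, miR-322 and miR-503 passed the filter, which asked for the flag on all 3 arrays from at least 1 of the groups. The other 7 members, that is the 5p arms of miR-195a and miR-497a and the 3p arms of miR-15a, miR-15b, miR-16-1, miR-322 and miR-503, were well above background on 0 of 6 arrays. Of the 5 that passed, mmu-miR-15b-5p, mmu-miR-16-5p and mmu-miR-322-5p were well above background on all 6 arrays, and mmu-miR-15a-5p and mmu-miR-503-5p on all but 2D replicate 2. The number of members well above background per array was 5, 3 and 5 in 2D and 5 on each lr-ECM 3D array, a difference of 0.667 (exact two-sided permutation p = 1). With 3 arrays on each side no p under 0.1 is possible. Mature strands of the loci on chromosomes 14, 3 and X were thus measured in LLC1 cells in both cultures, and the chromosome 11 pair was not detectable at the signal of these arrays.

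None of the 5 detected members passed the test between the cultures, with 0 of 5 called, where a call needed an adjusted p under 0.05 together with at least a 2-fold change. Over all 120 tested miRNAs, 14 (11.7%) were called, and 1 (0.833%) was called lower in lr-ECM 3D. None of the called miRNAs was well above background on all 6 arrays. A fit limited to the 48 miRNAs that were so called 0 of them, and 3 of the 48 were members. The log2 changes of the 5 members, lr-ECM 3D minus 2D, ran from -0.45 to -0.02 with a median of -0.40, against a median of -0.11 over all 120. The changes of all 5 lay below 0, as did those of 76 of the 120. Of the 48 miRNAs flagged as detected on each of the 6 arrays 46 were below 0, with a median of -0.27, so a small negative value under this scaling was common to well detected miRNAs. With 3 arrays per group the intervals were wide, and that of mmu-miR-15b-5p reached -1.32, more than a 2-fold difference.

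**Figure D1:**
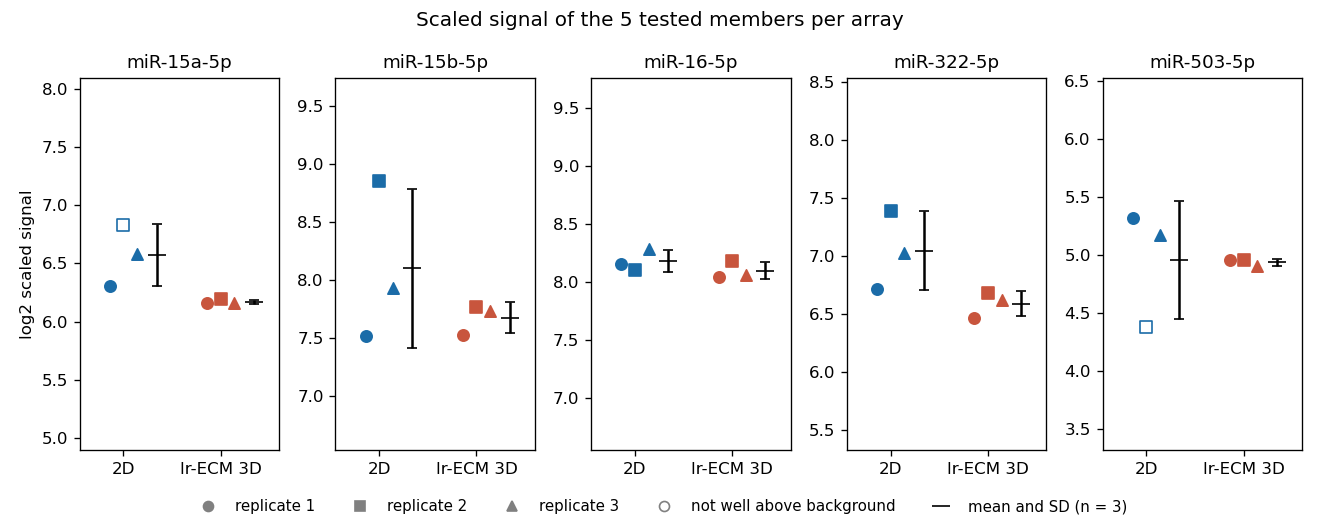
Log2 scaled signal (y axis) of the 5 tested members on each 2D and lr-ECM 3D array, with replicates by symbol, open symbols where the probe was not well above background, and the mean ± SD of each group beside the points. Each panel has its own position on the y axis with the same length of scale. The lr-ECM 3D arrays lie close together in each panel, and most of the spread is among the 2D arrays except for mmu-miR-16-5p. Its SD was 0.0939 in 2D and 0.0730 in lr-ECM 3D.

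The change of mmu-miR-16-5p, the family's reference member, had the smallest SE of the 5. Before scaling it read 273.9, 62.0 and 565.4 linear units on 2D replicates 1 to 3, and for lr-ECM 3D 590.5, 503.2 and 453.6. After scaling the log2 signals were 8.15, 8.10 and 8.28 in 2D and 8.04, 8.18 and 8.06 in lr-ECM 3D, so the groups overlapped. The log2 change was -0.09 ± 0.118 (SE, n = 3 per group), with a 95% interval from -0.380 to 0.206 (adjusted p = 0.625 in limma). A second probe of lower signal gave -0.14.

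The sister miRNA mmu-miR-15b-5p, which is processed from the same primary transcript as one copy of miR-16, had the largest SD among the 2D arrays of the 5 members, 0.684 on the log2 scale. It read 176.8, 104.7 and 441.9 linear units in 2D and 412.5, 378.6 and 362.5 in lr-ECM 3D before scaling. Scaled log2 signals were 7.52, 8.86 and 7.93 in 2D and 7.53, 7.77 and 7.74 in lr-ECM 3D. The high value was that of 2D replicate 2, the dimmest array, and the groups overlapped. Its log2 change was -0.43 ± 0.357 (SE, n = 3 per group), with an interval from -1.32 to 0.463 (adjusted p = 0.436). Without 2D replicate 2 the change was -0.05, with an adjusted p of 0.833.

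Both mmu-miR-15a-5p and mmu-miR-322-5p had lower scaled signals on all 3 lr-ECM 3D arrays than on any 2D array. For mmu-miR-15a-5p the log2 signals were 6.30, 6.83 and 6.58 in 2D and 6.16, 6.19 and 6.16 in lr-ECM 3D. The highest of these, on 2D replicate 2, came from 25.8 linear units before scaling, where 22.2% of the spots were well above background. The change was -0.40 ± 0.166 (SE, n = 3 per group; 95% interval -0.818 to 0.00861), a fold of 0.755. The adjusted p in limma was 0.214, and p before adjustment was 0.0535.

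For mmu-miR-322-5p the log2 signals were 6.71, 7.39 and 7.03 in 2D and 6.47, 6.68 and 6.62 in lr-ECM 3D. The lowest 2D value, on replicate 1, lay just above the highest lr-ECM 3D value, on replicate 2. The change was -0.45 ± 0.202 (SE, n = 3 per group; 95% interval -0.959 to 0.0514), a fold of 0.730. Its adjusted p in limma was 0.242, and p before adjustment was 0.0697. Groups that did not overlap, with lr-ECM 3D lower, were found for these 2 of the 5 members (40%) and for 27 of the 120 tested miRNAs (22.5%), while 24 of the 120 (20%) and 0 of the 5 did not overlap with lr-ECM 3D higher. Before scaling the groups overlapped for all 5 members. The unscaled signals of mmu-miR-322-5p, for example, were 100.7, 37.8 and 236.2 linear units in 2D and 198.0, 178.0 and 167.0 in lr-ECM 3D.

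The level of mmu-miR-503-5p, the neighbour of miR-322 with the divergent seed, rested on signals nearer to background. It read 38.5, 4.69 and 65.5 linear units in 2D and 69.6, 53.9 and 50.9 in lr-ECM 3D before scaling, and 0% of its spots were well above background on 2D replicate 2. Scaled log2 signals were 5.32, 4.38 and 5.18 in 2D and 4.96, 4.96 and 4.90 in lr-ECM 3D. The low 2D value was that of replicate 2, and the groups overlapped. The change was -0.02 ± 0.270 (SE, n = 3 per group; 95% interval -0.693 to 0.655; adjusted p = 0.962). Its second probe, which was detected on 0 arrays, gave 0.96, the only second probe of a tested member to differ in sign.

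Because the dimmest array set the 2D mean of several members, the comparison was repeated without 2D replicate 2, a fit in which 121 miRNAs were tested and the other arrays were rescaled. It called 32 miRNAs and 0 of the 5 members. The change of mmu-miR-503-5p became -0.31 (95% interval -0.566 to -0.0539; unadjusted p = 0.0240, adjusted p = 0.0593 in limma), with all 3 lr-ECM 3D arrays below both remaining 2D arrays. In this fit mmu-miR-15a-5p had a change of -0.27 and an adjusted p of 0.126, and mmu-miR-322-5p a change of -0.28 and an adjusted p of 0.159. These 3 members did not overlap between the groups, as was the case for 38 of the 121 tested miRNAs with lr-ECM 3D lower. A value of -0.13 was obtained for mmu-miR-16-5p.

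**Figure D2:**
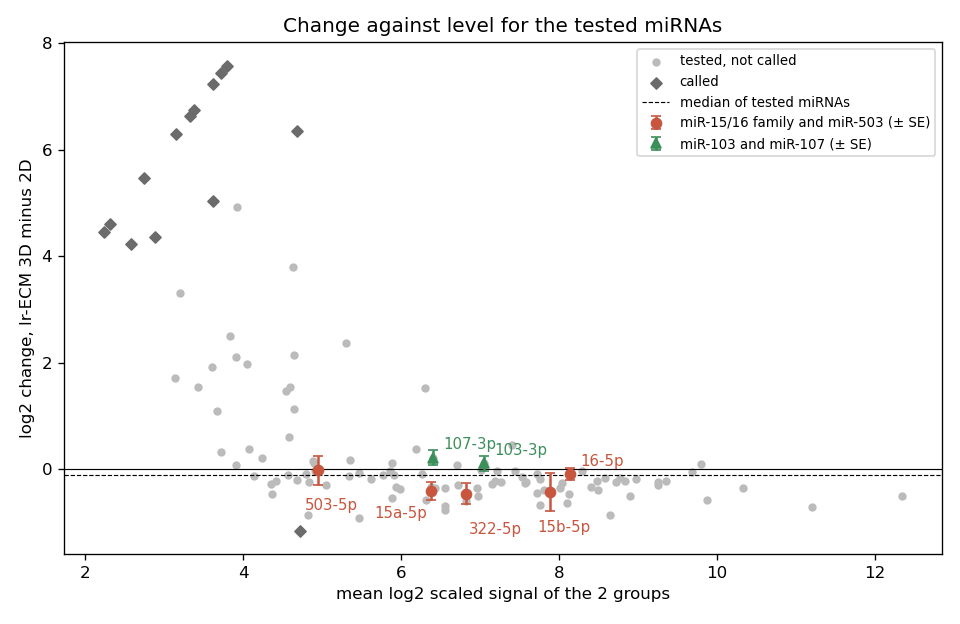
Log2 change, lr-ECM 3D minus 2D (y axis), against the mean log2 scaled signal of both groups (x axis) for the 120 tested miRNAs, with members of the family and the related miR-103 and miR-107 shown with their SE. The members lie in the band of small negative values that holds most tested miRNAs, while 13 of the 14 calls lie well above 0 at the left of the plot. Levels of different probes along the x axis are not compared.

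The sign of these small changes depended on how arrays were put on one scale and on background correction. Without scaling the 5 changes lay between 0.90 and 1.34, where the median of all tested miRNAs was 1.24. With the deposited log2 values they lay between 0.40 and 0.95, where that median was 0.76. With normexp background correction they lay between 0.03 and 0.63, where it was 0.41. Read against the median of the tested miRNAs, mmu-miR-15a-5p, mmu-miR-15b-5p and mmu-miR-322-5p lay below it under each alternative that moved the change or the median. These alternatives were 17 for mmu-miR-15a-5p and 18 for the others. The difference from the median ranged from -0.86 to -0.24 for mmu-miR-15a-5p, from -0.84 to -0.01 for mmu-miR-15b-5p and from -0.90 to -0.18 for mmu-miR-322-5p. By the same reading mmu-miR-16-5p was below the median under 7 of 18 alternatives and mmu-miR-503-5p under 3 of 17. Quantile normalization was the one alternative where adjusted p values of tested members passed 0.05 in limma. There mmu-miR-15a-5p had a change of -0.73 (adjusted p = 0.00383) and mmu-miR-322-5p a change of -0.53 (adjusted p = 0.0463), both short of a 2-fold change. Over all alternatives the adjusted p ranged from 0.00383 to 0.986 for mmu-miR-15a-5p and from 0.0463 to 0.986 for mmu-miR-322-5p.

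**Figure D3:**
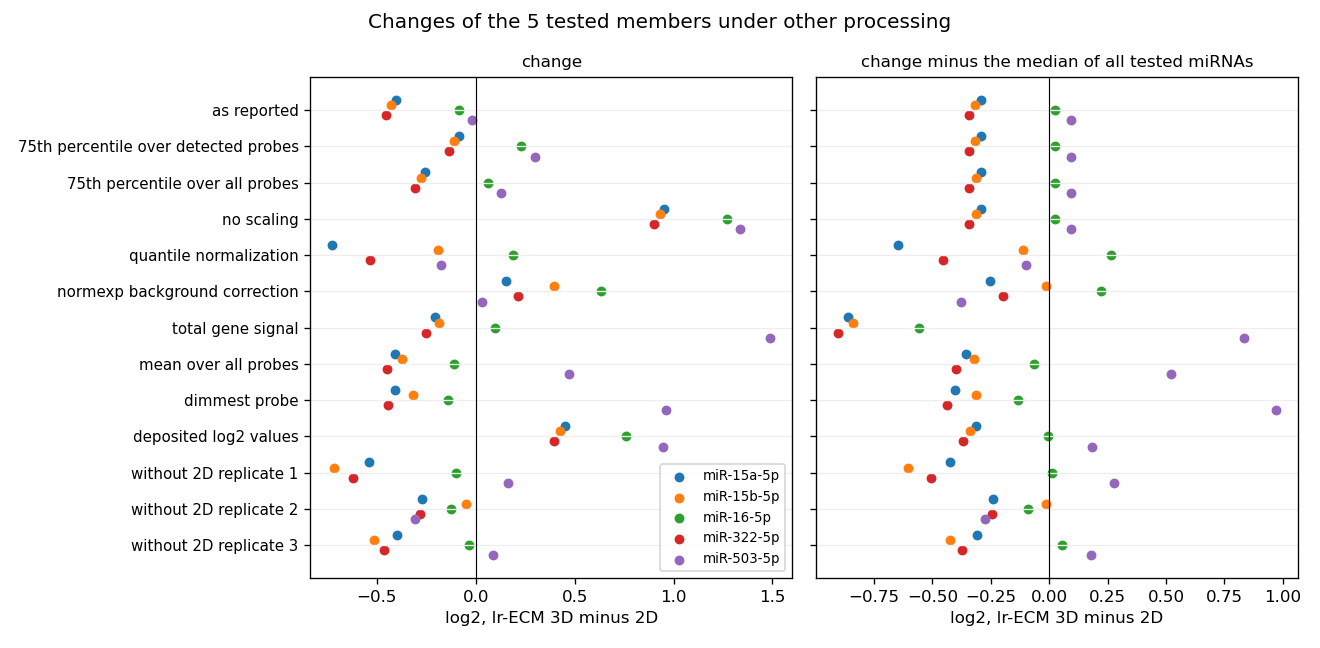
Log2 change of the 5 tested members (left) and the same change minus the median of all tested miRNAs (right), in lr-ECM 3D minus 2D, under the reported processing and 12 alternatives listed on the y axis. On the left all 5 move to positive values without scaling, with normexp background correction and with the deposited values. On the right mmu-miR-15a-5p, mmu-miR-15b-5p and mmu-miR-322-5p stay below 0.

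Differences between members on the same array do not depend on the scaling factor, so they were used to ask whether the loci shifted relative to each other between the cultures. The offset between 2 probes within an array has no meaning on its own, and only its shift between cultures is given. Over the 3 members well above background on all arrays, 3 pairs were compared, each by exact permutation of the arrays (two-sided). The shift of mmu-miR-16-5p relative to mmu-miR-322-5p was 0.37 on the log2 scale (lr-ECM 3D minus 2D), from within-array differences of 1.44, 0.71 and 1.26 in 2D and 1.58, 1.50 and 1.44 in lr-ECM 3D. The groups overlapped (exact permutation p = 0.2, adjusted p = 0.6). This shift was 0.15 without 2D replicate 2 (exact permutation p = 0.3). It was 0.52 without 2D replicate 1, 0.42 with normexp background correction and 0.72 with quantile normalization (exact permutation p = 0.1 for each, the smallest possible). The shift of mmu-miR-15b-5p was -0.34 relative to mmu-miR-16-5p (exact permutation p = 0.8, adjusted p = 1) and 0.03 relative to mmu-miR-322-5p (exact permutation p = 1, adjusted p = 1), and both pairs overlapped. With normexp background correction, the shift of mmu-miR-15b-5p relative to mmu-miR-322-5p was 0.18 (exact permutation p = 0.1). Without 2D replicate 2, the shift of mmu-miR-15b-5p relative to mmu-miR-16-5p was 0.08, and its sign turned.

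Without that array all 5 members could be set against each other, in 10 pairs of 2 arrays against 3, where 0.1 is the smallest p possible. For the cluster neighbours mmu-miR-322-5p and mmu-miR-503-5p the within-array differences were 1.39 and 1.85 in 2D and 1.51, 1.72 and 1.71 in lr-ECM 3D. Their shift of 0.03 was smaller than the spread between the 2D arrays, an SD of 0.328 (exact permutation p = 1), and the design cannot show whether the pair moved together. The signal of mmu-miR-16-5p covers its copy on chromosome 3 as well as the one beside miR-15a on chromosome 14. Relative to it, mmu-miR-15a-5p had a shift of -0.15 with groups that did not overlap (exact permutation p = 0.1, adjusted p = 0.5). The same p and adjusted p were found for mmu-miR-15b-5p relative to mmu-miR-322-5p, with a shift of 0.23. No pair passed an adjusted p of 0.05, which this design could not reach.

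The undetected members include mmu-miR-195a-5p, which the study chose from these samples as one of its qPCR miRNAs, so its direction here is not independent evidence. Unscaled, it read -0.59, -1.76 and 3.73 linear units on 2D replicates 1 to 3, against 13.0, 9.71 and 9.17 for lr-ECM 3D. All 3 lr-ECM 3D values were above all 3 in 2D. They were also below the lowest signal of any mouse probe well above background, which was 22.1, 25.9 and 23.1 on those arrays, and below the 95th percentile of negative control spots, which was 13.8, 15.1 and 12.7. The member values are means over several spots, whereas the percentiles are over single control spots. The mean of the negative controls went the other way, with 8.24 ± 0.266 in 2D and 6.03 ± 1.36 in lr-ECM 3D (SD, n = 3 each).

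The passenger strand mmu-miR-15a-3p had the same shape. It shows no AGCAGCA at its 5′ end, and its own seed is given in capitals.
mmu-miR-15a-3p: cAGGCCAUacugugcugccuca

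It read -0.28, -1.78 and -2.59 linear units in 2D and 18.8, 12.0 and 9.57 in lr-ECM 3D. The first lr-ECM 3D value was above the 95th percentile of the negative controls on its array, where the scanner software flagged the miRNA as detected over all its probes, while 0% of the spots of this probe were well above background on any of the 6 arrays. All 4 of its probes and both probes of mmu-miR-195a-5p had lr-ECM 3D signals above the 2D signals on each array. Two-sided limma tests without the filter on detection, over all 566 mouse miRNAs, called both members, with log2 changes of 2.78 (adjusted p = 0.00108) and 2.14 (adjusted p = 0.0359). The same fit called 28 of 566 (4.95%) higher. These changes depend on the floor of 1 linear unit at which signals were set before the log, since all 3 values of mmu-miR-15a-3p and 2 of 3 of mmu-miR-195a-5p in 2D lay under it, and they are no measure of fold.

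Signals that did not overlap before scaling, with lr-ECM 3D higher, were found for 4 of the 7 undetected members (57.1%). Among the 412 mouse miRNAs that were well above background on 0 arrays it was 53 (12.9%). The remaining 2 of the 4 members were mmu-miR-16-1-3p and mmu-miR-497a-5p. For mmu-miR-16-1-3p the 2D signals lay between -3.57 and 5.34 linear units and those of lr-ECM 3D between 6.90 and 10.8, and none of its 4 probes overlapped. The 2D signals of mmu-miR-497a-5p lay between 1.47 and 3.75 and those of lr-ECM 3D between 5.07 and 14.6, and its second probe overlapped. Its highest value was that of lr-ECM 3D replicate 1, where 10% of the spots were well above background. In contrast mmu-miR-503-3p read between -12.1 and -9.86 on the 6 arrays with overlapping groups, and mmu-miR-15b-3p and mmu-miR-322-3p overlapped as well. The median difference before scaling was 6.44 linear units over the 7 members and -0.84 over the 412 miRNAs. The total brightness of the arrays also differed in this direction, with 22.3 ± 17.7 in 2D and 42.2 ± 6.72 in lr-ECM 3D (SD, n = 3 each), and its part in these signals was not tested.

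**Figure D4:**
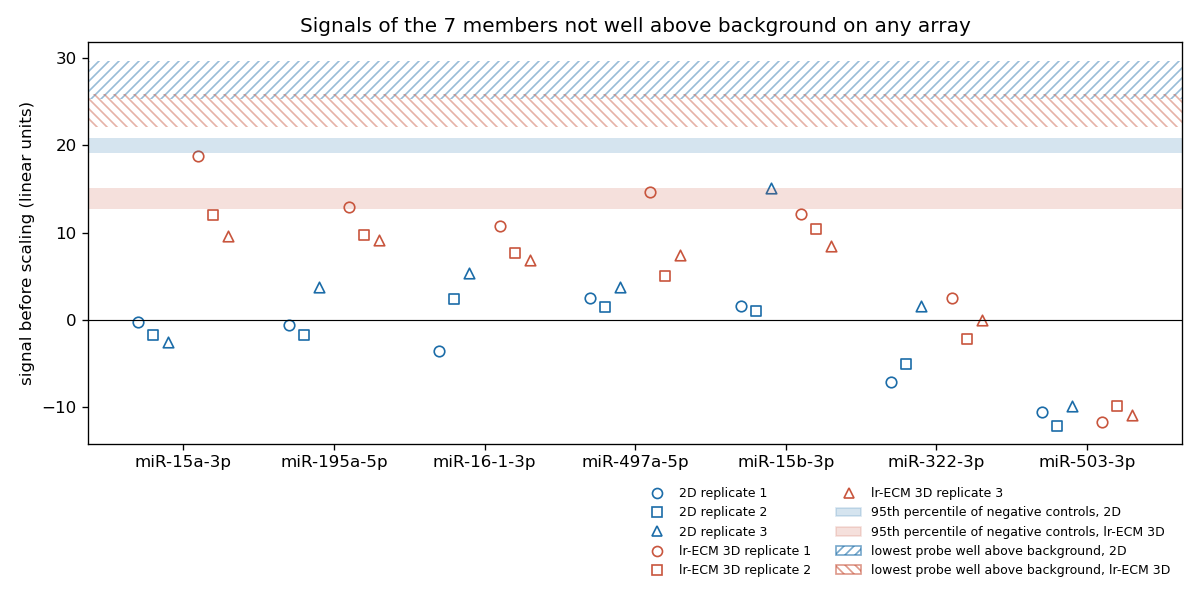
Signal before scaling in linear units (y axis) of the 7 members detected on 0 arrays, per array, with shaded bands for the 95th percentile of negative control spots and hatched bands for the lowest probe well above background, each over the 3 arrays of a group. All points lie below the hatched bands, and the lr-ECM 3D points of mmu-miR-15a-3p, mmu-miR-195a-5p, mmu-miR-16-1-3p and mmu-miR-497a-5p lie above their 2D points.

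Of the related miRNAs outside the family, miR-103 and miR-107 carry the AGCAGCA bases from position 1 and not from position 2, which makes them the usual wider circle of this group. The sequences show the offset, with bases 2 to 8 in capitals.
mmu-miR-103-3p: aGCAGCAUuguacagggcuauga
mmu-miR-107-3p: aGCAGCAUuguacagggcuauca

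Both were tested and 0 of 2 were called. The log2 signals of mmu-miR-103-3p were 6.83, 7.13 and 7.03 in 2D and 6.99, 7.19 and 7.15 in lr-ECM 3D. The change was 0.11 (adjusted p = 0.585 in limma). For mmu-miR-107-3p they were 6.09, 6.40 and 6.40 in 2D and 6.41, 6.58 and 6.56 in lr-ECM 3D. The change was 0.22 (adjusted p = 0.349 in limma). The lr-ECM 3D values of mmu-miR-107-3p were all above its 2D values, the opposite order to mmu-miR-15a-5p and mmu-miR-322-5p, although none of these 3 passed the test and the difference between them was not tested.

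The X-linked cluster extends beyond miR-322 and miR-503 to miR-351, miR-542 and the miR-450 miRNAs, of which 7 were on the array. None of the 7 passed the filter and 6 were well above background on 0 arrays. The exception, mmu-miR-450a-5p, was well above background on 3 arrays, 1 in 2D and 2 in lr-ECM 3D. It read 11.6, 10.3 and 34.7 linear units in 2D and 33.4, 21.8 and 24.4 in lr-ECM 3D before scaling, and the groups overlapped. Detection of the cluster in LLC1 cells was thus limited to the 5p arms of miR-322 and miR-503 and, at the edge of the background, mmu-miR-450a-5p.

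The pattern of the family over arrays was set against the 45 other mouse miRNAs detected on each of the 6 arrays, by the root mean square distance between profiles after each miRNA's mean was removed. The mean profile of mmu-miR-15b-5p, mmu-miR-16-5p and mmu-miR-322-5p was nearest to those of mmu-let-7d-5p with a distance of 0.0514 on the log2 scale, mmu-let-7f-5p, mmu-let-7c-5p, mmu-miR-199b-5p and mmu-miR-130a-3p. The median distance over the 45 was 0.134. All 6 arrays share this scaling, and 2D replicate 2 weighs on each of these profiles.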

How the data were processed

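Scanner files hold linear spot intensities that the authors extracted with Agilent Feature Extraction 10.7.3.1, background-subtracted and not normalized between arrays, with flags for outliers and detection as other deposited columns. The deposited series table holds log2 values of these intensities plus a constant for each array (largest departure 0.0487). Per the labels, replicates were biological. The methods name a Sanger database release as the source of the mouse miRNA probes, and a genome build is not given in the sources used here.

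Outlier spots (190 to 369 per array) were dropped and 0 spots were saturated. Spots were averaged to 1712 probes. Each array's mean over miRNA probes was set to the mean of the 2D arrays. The methods' scaling to control samples can be read in other ways. In the deposited table the log2 means are instead equal on all 6 arrays (1.79), and those values gave positive changes for the 5 tested members. Signals were floored at 1 and log2 transformed. The probe with the highest mean stood for a miRNA. Tests used limma 3.58.1 in R 4.3.3 (lmFit, eBayes, two-sided, Benjamini-Hochberg over the 120 mouse miRNAs that carried the detection flag on all 3 arrays in at least 1 culture) with an adjusted p of 0.05 and a fold of 2. Within-array differences used exact permutation tests. The fit was tested on simulated data with 30 of 120 miRNAs shifted. It recovered 100% of them at an SD of 0.25 and 80% at the SD of the arrays, with 0 false calls. The simulated noise was independent for each miRNA, without array-wide brightness, the floor or a slide and day difference. False calls that arise from those were not tested. The simulated shifts were larger than the changes of the tested members, so recovery of changes of that size was not tested.

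Members and lists were chosen with earlier results of these data known. Named miRNAs are the members, miR-103 and miR-107, the X-linked neighbours, the marker lists and the 5 nearest profiles. Mature sequences, positions and neighbouring genes came from RefSeq tables of GRCm38.p6, matched by name. The number of arrays limits precision, and 5 kinds of choice were varied: scaling, background correction, probe summary, filter and replicates, with normexp run on median pixel signals and an offset of 50. The signal of 2 probes was never compared as a level.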

Additional observations from a re-analysis of the deposited data

How the results depend on the processing

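The count of members called was 0 under the reported processing and under each alternative except the fit with no filter on detection, where it was 2. The count of all tested miRNAs called was 14 and rose to 25 with the 75th percentile over all probes, 27 with no scaling, 26 with total gene signal, 27 with the deposited log2 values, and 32 when no filter was applied. It was 0 with the filter on all 6 arrays, where limma gave 7 of 48 at an unadjusted p under 0.05. Leaving out single arrays gave 12 to 32, with 32 without 2D replicate 2, and members called stayed at 0. The methods' t-test gave 17 calls at an unadjusted p of 0.05 and 12 after Benjamini-Hochberg adjustment, with 0 members in both.

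Signs turned as follows, and the cause was not tested beyond the shift of the median given with the results. Positive log2 changes were found for mmu-miR-15a-5p, mmu-miR-15b-5p and mmu-miR-322-5p with no scaling (0.95, 0.93 and 0.90), normexp (0.15, 0.39 and 0.21) and the deposited values (0.45, 0.42 and 0.40). For mmu-miR-16-5p they were 0.23 and 0.060 with the 75th percentile over detected and over all probes, 1.27 with no scaling, 0.19 with quantile normalization, 0.63 with normexp, 0.10 with total gene signal and 0.76 with the deposited values. For mmu-miR-503-5p they were 0.30 and 0.13 with the 75th percentile over detected and over all probes, 1.34 with no scaling, 0.030 with normexp, 1.49 with total gene signal, 0.47 with the mean over all probes, 0.95 with the deposited values and 0.96 with the dimmest probe, an alternative chosen after seeing the data. With single arrays left out its change ranged from -0.31 (without 2D replicate 2) to 0.16 (without 2D replicate 1), and it was 0.089 without 2D replicate 3.

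Within-array shifts over the arrays left out in turn ranged from -0.62 to 0.076 for mmu-miR-15b-5p minus mmu-miR-16-5p and from -0.098 to 0.23 for mmu-miR-15b-5p minus mmu-miR-322-5p, where the values without 2D replicate 1 and 2D replicate 3 were -0.098 and -0.052. For mmu-miR-16-5p minus mmu-miR-322-5p they ranged from 0.15 without 2D replicate 2 to 0.52 without 2D replicate 1. Normexp gave 0.42 and quantile normalization 0.72. The comparison of all pairs without 2D replicate 2 was also chosen after seeing the data. The difference in members well above background was 0.667 under the reported rule, and the other 2 detection rules gave values within the spread between arrays.

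Deviations of same-numbered arrays from their group means correlated at -0.32, -0.37 and 0.16 over the 120 miRNAs. These deviations also carry the brightness of each array, so they cannot show whether same-numbered cultures were paired. With the replicate number as a block, 12 miRNAs and 0 members were called, and mmu-miR-15a-5p and mmu-miR-322-5p had adjusted p of 0.265 and 0.239. Signal over background limits the 7 undetected members, whose signals were below the lowest probe well above background on each array.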
